A study of Mus musculus with 6 samples.

Results

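The cells described here come from a mouse mammary tumor and were chosen by their UMIs of 4 transcripts of circulating and newly arrived monocytes, Chil3, Ly6c2, Plac8 and Ccr2. A cell was selected when it held between 200 and 4000 genes and at most 25% mitochondrial UMIs, at least 4 UMIs of these 4 genes together, at least 1 UMI of the pan-leukocyte gene Ptprc, at most 2 UMIs of the complement genes C1qa, C1qb and C1qc together, fewer than 20 UMIs of the granulocyte genes S100a8 and S100a9 together, and no UMI of Cd3g, Nkg7 or Flt3. A UMI is 1 counted RNA molecule. These limits left 318 of the 17562 tumor cells that passed the gene and mitochondrial limits, out of 24527 deposited tumor cells and 58561 cells in the whole series. The selected cells numbered 100 in the control library, 78 in the 15 min platform library and 140 in the 60 min platform library.

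The series compared a microfluidic tissue dissociation platform with a conventional digest in kidney and tumor, in 6 droplet libraries, with 1 library for each condition of each tissue. The tumor came from 10 week old MMTV-PyMT female mice, in which the MMTV promoter drives the polyoma middle T oncogene in the mammary epithelium, so that the immune cells belong to the host and not to the transformed lineage. The control was minced tumor digested for 60 min in collagenase, and the platform gave a first collection after 15 min of recirculation and a second, from the tissue that remained, at the 60 min time point. All 3 libraries shared the mincing, the enzyme, DNase treatment, red cell lysis and a sort that removed dead cells. Platform cells also made a single pass through a dissociation and filter device. The study's controls were instead broken up by pipetting and vortexing and strained. Mechanical handling therefore differed between control and platform as well. By the study's methods the control and platform runs of a replicate shared their source mouse, and a single replicate was sequenced. With 1 library per condition no difference below has a replicate check. The intervals given are 95% intervals that cover counting error only.

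Classical monocytes leave the bone marrow under the control of the chemokine receptor Ccr2, circulate with high surface Ly6C, and enter inflamed tissue and tumors. There they can lose the monocyte program and take on that of macrophages, which includes the complement C1q genes, apolipoprotein E and lysosomal genes, or that of monocyte-derived dendritic cells. Monocytes respond within minutes to adhesion, shear, heat and microbial products by transcribing immediate early genes, chaperones, cytokines and chemokines.

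The 4 genes that chose the cells were carried unevenly. Ccr2 was found in 269 of the 318 cells, Plac8, a small cysteine-rich protein of myeloid cells, in 248, the chitinase-like secreted protein Chil3 in 186 and the GPI-anchored surface protein Ly6c2 in 121. All 4 genes were found in 68 cells, 3 in 113, 2 in 76 and a single one in 61. Ccr2 was that single gene in 46 cells, Plac8 in 14 and Chil3 in 1. Ly6c2 has a close paralog, Ly6c1, which is known from endothelium, and reads shared by the pair may be split between them. Ly6c1 was found in 1.26% of the selected cells and in 1.42% of C1q macrophages.

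Levels of the rule genes describe the selection. They are given as CPM, the UMIs of a gene summed over the selected cells of a library and scaled to a common total. Chil3 stood at 1034 CPM in the control library, 1189 CPM in the 15 min library and 851 CPM in the 60 min library. Ly6c2 gave 340 CPM, 261 CPM and 250 CPM in the same order. Plac8 was nearly level, at 1491, 1649 and 1531 CPM. Ccr2 stood at 350 CPM in the control, 810 CPM at 15 min and 479 CPM at 60 min. After thinning of every cell to 3000 UMIs, with 8 shallower selected cells and 69 macrophages left out, Chil3 was found in 48.4% of the selected cells and Ccr2 in 64.5%. The C1q macrophages of the same libraries, defined as cells with at least 10 C1q UMIs and at most 3 UMIs of the 4 genes, gave 0.243% and 7.70%, against 0.709% and 19.7% before thinning. Median depths of the 2 groups were 10296 and 11587 UMIs per cell.

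The cells nearest the limits were few. The 16 cells with a marker sum of exactly 4 held Ccr2 at 378 CPM and the macrophage gene Apoe at 7008 CPM, and the 26 cells just outside, with a sum of 3, held Ccr2 at 164 CPM and Apoe at 16210 CPM. At the C1q limit 15 cells lay just inside with 2 UMIs and 2 lay just outside with 3. Barcodes found in a pair of tumor libraries numbered 16 to 21, and none belonged to a selected cell. A doublet caller marked 89, 174 and 161 cells of the control, 15 min and 60 min libraries, which are 1.12, 2.17 and 2.02% of the cells it scored, and 3 of the selected cells, all in the 60 min library.

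The label monocyte held for a minority of the selected cells. Clustered without the genes that differed between libraries, they fell into 7 clusters, and 101 of the 318 cells (31.8%) lay in clusters with a monocyte program. Cluster 2, with 74 cells, was classical monocyte-like: outside the rule it was led by Saa3, Ifitm6, Slpi, Vcan, Gsr, Hp and Itgal, and 15 of the 18 classical markers were detected. It was not free of non-classical markers. Itgal is one, at 336 CPM beside 860 CPM in cluster 5. Ear2, Ace and Adgre4 stood lower among its leading genes, in 58.1, 40.5 and 39.2% of its cells, beside 85.2, 100 and 96.3% in cluster 5. Vcan, the matrix proteoglycan versican, stood there at 266 CPM and haptoglobin (Hp) at 540 CPM. Cluster 5, with 27 cells, was non-classical monocyte-like and led by Ace, Eno3, Pglyrp1, Adgre4 and Treml4, genes of the patrolling monocyte, with Ace at 603 CPM and Treml4 at 453 CPM. It kept Chil3 at 1988 CPM and Plac8 at 3455 CPM but held Ccr2 at 72.1 CPM and Ly6c2 at 61.8 CPM.

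The other clusters held other programs. Cluster 1, the largest with 104 cells, was macrophage-like, led by Ms4a7, Pf4, Cd63, Apoe, Mrc1 and the chemokine Ccl7, and 12 of 18 macrophage markers were detected. Its Apoe was at 15401 CPM, beside 2671 CPM in cluster 2. Cluster 3, with 45 cells, was dendritic cell-like, with the C-type lectin Cd209a at 743 CPM, the homing receptor Ccr7 at 265 CPM and Chil3 at 0. Cluster 4, with 43 cells, stayed unnamed, led by Spp1, Cxcl9 and interferon-stimulated genes such as Rsad2 and Ifit2, although it held Ly6c2 at 1053 CPM and Chil3 at 1228 CPM. Cluster 6, with 18 cells, stayed unnamed too. It entered the selection through Ccr2 at 781 CPM, had neither Chil3 nor Ly6c2, and was led by the secreted resistin-like Retnla at 15088 CPM, the lysozyme Lyz1 at 12716 CPM and Fcrls. Cluster 7, with 7 cells, stayed unnamed as well, and its leading genes were not shared by all of its cells. The casein Csn3 (6009 CPM) and the keratin Krt18 (644 CPM) of mammary epithelium were each found in 57.1% of them. Igfbp7, Igfbp3, Cxcl12, Col4a1 and Sparc, also among its 10 leading genes, were each found in 28.6%.

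**Figure D1:**
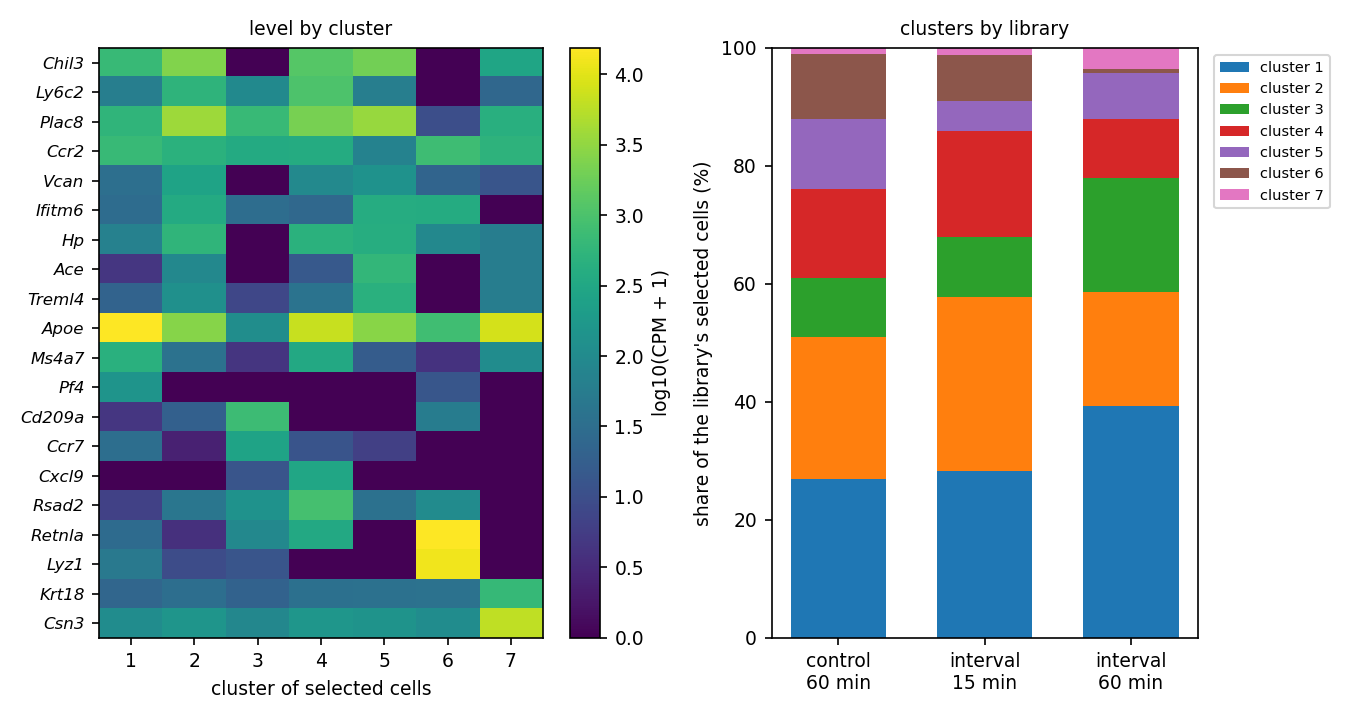
Left, level of 20 genes in the 7 clusters of the selected cells, as log10(CPM + 1), where brighter is higher. Right, share of each library's selected cells in each cluster, in percent. Vcan and Hp are bright in cluster 2, Ace in cluster 5, Apoe and Pf4 in cluster 1, Cd209a in cluster 3, Rsad2 in cluster 4 and Retnla and Lyz1 in cluster 6, which nearly vanishes in the 60 min library with 1 cell of 140.

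The makeup of the selected cells moved between libraries. Cluster 2 made up 24 of 100 cells in the control, 23 of 78 at 15 min and 27 of 140 at 60 min, or 24.0% (16.02 to 33.6), 29.5% (19.7 to 40.9) and 19.3% (13.1 to 26.8). The macrophage-like cluster 1 took 27.0% (18.6 to 36.8), 28.2% (18.6 to 39.5) and 39.3% (31.1 to 47.9). The dendritic cell-like cluster 3 held 10, 8 and 27 cells, and the Retnla and Lyz1 cluster 6 held 11, 6 and 1. The named clusters' intervals overlapped between libraries. Levels pooled over all selected cells therefore mix changes in makeup with changes within a cell type, and values within clusters are given beside the pooled ones for some of the main genes.

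The marker lists of other cell types were summed in each library. In the selected cells the 18 classical monocyte markers outside the rule summed to 26538, 23660 and 16247 CPM in the control, 15 min and 60 min libraries, and to 5755 to 7983 CPM in C1q macrophages. Most of the selected cells' sum in each library was the myeloid lysozyme Lyz2, whose pooled and within-cluster levels are given below. The 18 macrophage markers summed to 9565 to 10801 CPM in the selected cells and to 54838 to 72810 CPM in the macrophages. The 11 dendritic cell markers summed to 713, 416 and 635 CPM and the 12 non-classical monocyte markers to 1268, 1609 and 1431 CPM. Of the 12 neutrophil markers, which summed to 263 to 514 CPM, the defining Ly6g, Retnlg and Ngp were at 0. The 7 T cell markers summed to at most 4.23 CPM with Cd3d and Trac at 0, and mast cell and red blood cell lists were at 0. The 9 epithelial markers summed to 1003, 828 and 1206 CPM, and to 1779, 1892 and 1058 CPM in the macrophages. A Krt8 or Krt18 UMI was found in 54 of 100, 25 of 78 and 34 of 140 selected cells, and in 55.9, 33.3 and 30.8% of the macrophages of the same libraries, so keratin RNA moved with the library in both, at median depths of 9939 to 10858.5 and 9436.5 to 12479 UMIs. The 5 endothelial markers summed to 27.1 CPM in the control and 101 CPM at 60 min and the 5 fibroblast markers to 9.31 and 49.9 CPM, and the part of these in the results below was not tested.

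The selected cells were also set beside the C1q macrophages gene by gene, as a description, since the C1q limit of the rule separates the groups. Among genes that the rule did not use, those higher in the selected cells included the interferon-induced transmembrane gene Ifitm6 (158 against 0.792 CPM, means of the 3 libraries), Hp (235 against 1.19 CPM), Vcan (87.9 against 1.16 CPM), the coagulation factor F10 (231 against 2.46 CPM) and the calcium-binding S100a4 (1618 against 27.5 CPM). Those lower included the chemokine Ccl8 (1.42 against 517 CPM), the adhesion molecule Vcam1 (2.95 against 316 CPM), the lysosomal tetraspanin Cd63 (146 against 1776 CPM) and Tmem119, a gene known from microglia (35.7 against 292 CPM). Lyz1 (1358 against 8.74 CPM) and Cd209a (139 against 1.60 CPM) were also higher, and lay mostly in clusters 6 and 3.

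When the C1q limit was lifted, cells with a marker sum of at least 4 spread over the whole range of C1q. Chil3, Plac8, Ly6c2 and Ccr2 make up that sum, so their courses are bound to each other by the choice of the cells and are given as a description. Between no C1q UMI (226 cells) and 30 or more (289 cells), with only 22 and 21 cells in the bins of 3 to 9 and 10 to 29 UMIs, Chil3 ran from 1004 through 967, 407 and 205 to 28 CPM over the 5 bins. Plac8 ran from 1792 to 68.7 CPM and Vcan from 92.5 to 2.77 CPM, with no Vcan UMI in the bin of 10 to 29. Ccr2, through which a cell poor in the other rule genes has to pass, was between 457 and 617 CPM in all 5 bins. Apoe ran from 7157 to 31275 CPM, Ms4a7, a membrane protein of mature macrophages, from 196 to 1039 CPM, and Cd63 from 121 to 962 CPM. Ly6c2 was not monotonic, with 541 CPM in the 22 cells of the third bin.

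**Figure D2:**
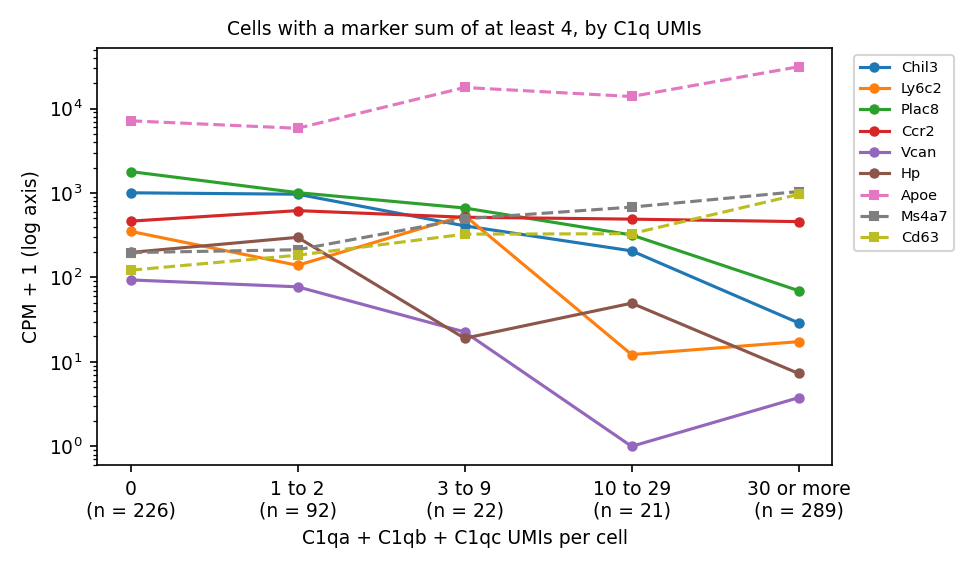
CPM + 1 on a log axis of 6 monocyte genes (solid lines) and 3 macrophage genes (dashed lines) in cells with at least 4 marker UMIs, by the cell's C1q UMIs, pooled over the 3 libraries with the number of cells under each bin. Chil3, Plac8 and Vcan are lower and Apoe, Ms4a7 and Cd63 higher in the bin of 30 or more than in the bin of 0, while Ccr2 lies between 457 and 617 CPM, and the rule genes among these chose the cells.

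As a share of all kept tumor cells the selected cells made up 1.74% (1.42 to 2.12) of the control, 1.34% (1.06 to 1.68) of the 15 min library and 2.32% (1.958 to 2.74) of the 60 min library. The 60 min share was 1.73 times the 15 min share (1.31 to 2.27) and 1.33 times the control share (1.03 to 1.72), and the 15 min share was 0.771 times the control share (0.575 to 1.03). Keratin-rich epithelial cells without Ptprc took 45.9, 57.1 and 32.0% of the same libraries. Taken over cells with a Ptprc UMI, the selected cells made up 6.25% (5.11 to 7.55), 5.84% (4.65 to 7.24) and 7.04% (5.95 to 8.25), and all 3 ratios had intervals that held 1, with 60 min over 15 min at 1.20 (0.921 to 1.58).

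C1q macrophages took 12.2, 12.2 and 18.8% of kept cells, and the selected cells numbered 14.3, 11.02 and 12.4 per 100 such macrophages. Granulocytes, taken as cells with at least 20 S100a8 and S100a9 UMIs and at most 2 C1q UMIs, ran the other way, at 3.54, 1.41 and 1.01% of kept cells. The same limits applied to the kidneys of 12 week old C57BL/6 mice, with that tissue's gene and mitochondrial limits, left 87, 38 and 140 cells, which were 1.48, 0.453 and 1.41% of kept kidney cells and 6.38, 7.22 and 4.65% of those with Ptprc. A share says nothing of the yield of cells, and a difference between single libraries cannot be told apart from one between the conditions.

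**Figure D3:**
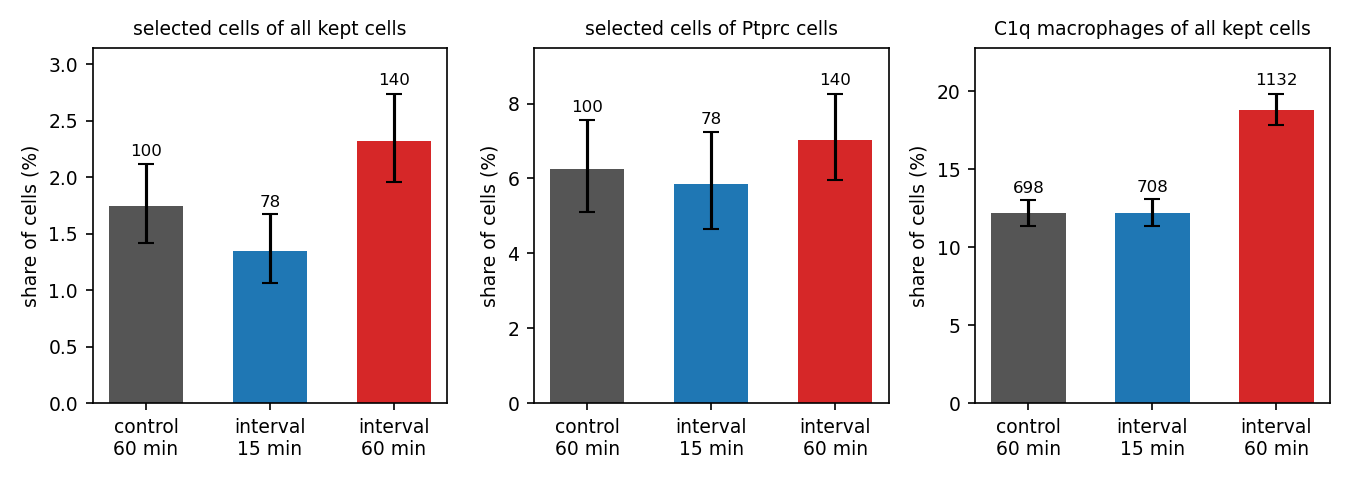
Share of the selected cells among all kept tumor cells (left) and among cells with a Ptprc UMI (middle), and share of C1q macrophages among all kept cells (right), in percent, for the 3 tumor libraries. Bars start at 0, whiskers are exact binomial 95% intervals and the number of cells stands above each bar; the 60 min bar lies above the 15 min bar on the left, and the whiskers overlap in the middle.

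Gene levels of the selected cells were compared between libraries over 1181003, 799656 and 1462168 summed UMIs, from cells with median depths of 10858.5, 10186.5 and 9939 UMIs and 3.74, 3.41 and 3.51% mitochondrial UMIs. A gene was counted when its mean level reached 50 CPM, which left 2569 genes, and called when the ratio of the CPMs was at least 2 either way. At 15 min against the control 106 genes were called higher, which is 4.13% of those counted, and 147 lower, which is 5.72%, or 9.85% together. At 60 min against the control 71 were called higher (2.76%) and 49 lower (1.91%), or 4.67% together. At 60 min against 15 min 98 were called higher (3.81%) and 62 lower (2.41%), or 6.23% together. The first 2 comparisons share the control library, and their values are set side by side only.

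The balance of higher and lower calls depended on the scaling. With median-of-ratios factors in place of CPM, 56 genes were called higher and 217 lower at 15 min against the control, 73 and 45 at 60 min against the control, and 157 and 23 at 60 min against 15 min. The median log2 ratio of all counted genes was 0.05, -0.10 and -0.14 in the 3 comparisons with CPM and -0.16, -0.07 and 0.10 with median-of-ratios factors. A ratio near 2 can therefore fall on either side of the fold, and changes below are best read relative to these medians.

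Most of the counted immediate early genes, which code for transcription factors and feedback phosphatases and are made without new protein, were higher in both platform libraries than in the control. Of 23 counted members of a list of 25, 14 were called higher and 3 lower at 15 min against the control, with a median log2 ratio of 1.55 beside 0.05 for all genes. At 60 min against the control 13 were called higher and none lower, with a median of 1.16 beside -0.10, and at 60 min against 15 min only Nr4a3 was called higher and Fos and Egr1 lower, with a median of -0.06 beside -0.14. The share of all counted genes called higher was 4.13% at 15 min and 2.76% at 60 min against the control.

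Egr1, a zinc finger factor of the early growth response family, was at 74.5 CPM in the control, 1109 CPM at 15 min and 353 CPM at 60 min. The first platform library was thus 14.9-fold above the control (11.9 to 18.7), and Egr1 was found in 21 of 100, 67 of 78 and 71 of 140 cells. The AP-1 subunit Fos was at 530.1, 4268 and 1905 CPM, 8.05-fold higher at 15 min than in the control (7.39 to 8.78), and its partner Jun at 207, 1953 and 1353 CPM. All 3 genes had their highest level at 15 min, an intermediate one at 60 min and the lowest in the control. Atf3, a stress-induced repressor, followed with 163, 1593 and 1193 CPM, 9.75-fold (8.37 to 11.4) and 7.30-fold (6.29 to 8.52) above the control. The Kruppel-like factor Klf2, a gene induced by flow in endothelium, was at 178, 1381 and 735 CPM, and the phosphatase Dusp1, which switches off MAP kinases, at 377, 2076 and 1317 CPM.

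The orphan nuclear receptors did not move as a family. Nr4a1 was higher in both platform libraries, at 195, 685 and 671 CPM, while Nr4a3 was lower at 15 min, at 195, 56.3 and 145 CPM, 3.46-fold below the control (2.51 to 4.88). Nr4a2 and Ier3 were also called lower at 15 min, Nr4a2 at 296, 140.1 and 268 CPM and Ier3 at 1523, 714 and 1292 CPM. Of the monocyte and macrophage transcription factors, 14 counted genes gave 4 called higher at 15 min against the control (Klf4, Cebpd, Nr4a1, Maf) and 1 lower (Bhlhe40). Over all counted genes 4.13% were called higher and 5.72% lower in that comparison. The lineage factor Spi1, at 591, 594 and 508 CPM, was past the fold in no comparison.

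C1q macrophages held Fos and Egr1 at higher levels than the selected cells in every library. Their Fos was at 937, 4709 and 2999 CPM and their Egr1 at 252, 1723 and 797 CPM, in the same order of libraries. Keratin-rich epithelial cells had a flatter Fos, at 2661, 2850 and 3451 CPM. Within the classical monocyte-like cluster 2, Fos was at 648, 4442 and 1422 CPM and Egr1 at 76.5, 897 and 169 CPM. The 10 genes with the largest ratio at 15 min against the control, Egr1, Atf3, Jun, Fos, Klf2, Dusp1, Slfn1, Rgs2, Ier2 and Btg2, were higher at 15 min in each of the 3 clusters with at least 10 cells in both libraries.

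Heat shock chaperones, which refold proteins and are driven by heat shock factors through repeated GAA blocks, stood out at 60 min. Of 11 counted members of a list of 13, 8 were called higher at 60 min against the control and 7 at 60 min against 15 min, with none lower in either and medians of 1.43 and 1.27. All counted genes gave 2.76 and 3.81% called higher in these comparisons, with medians of -0.10 and -0.14. At 15 min against the control only Dnajb1 was past the fold, and the median was 0.18 beside 0.05 for all genes. The 300 base promoter windows of RefSeq, from 250 bases before to 50 bases after an annotated start in GRCm38.p6, were searched for the palindrome GAANNTTC, which reads the same on both strands. It was in 8 of the 10 chaperone genes with a window (Bag3, Dnaja1, Hspa1a, Hspa1b, Hspb1, Hspd1, Hspe1, Hsph1) and in 7.86% of all 32851 windows. The 10 genes had 15 windows, so the count of genes and the share of windows differ in unit. A match is a description of the letters, not a binding site. The stretch around it is printed for the inducible Hsp70 pair, 5′ to 3′ on the gene's strand with the match in capitals, to show that the copies are alike letter for letter there. Hspa1a lies on the minus strand at chr17:34972218-34972295 and Hspa1b on the minus strand at chr17:34959300-34959377, and the match starts at position -104 from the start in each.
Hspa1a: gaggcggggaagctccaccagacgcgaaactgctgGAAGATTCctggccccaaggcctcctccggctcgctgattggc
Hspa1b: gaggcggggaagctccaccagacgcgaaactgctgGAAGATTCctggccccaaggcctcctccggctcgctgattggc

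Hspa1a was at 179 CPM in the control, 243 CPM at 15 min and 2399.9 CPM at 60 min, 13.4-fold above the control (11.7 to 15.5) and 9.89-fold above the 15 min library (8.56 to 11.5). Hspa1b was at 72.0, 40.0 and 949 CPM, 13.2-fold (10.6 to 16.6) and 23.7-fold (16.7 to 34.8) higher at 60 min. The pair codes for nearly identical proteins and reads may be split between them with error. At 60 min Hspa1a was found in 95 of 140 cells, against 37 of 100 in the control and 33 of 78 at 15 min, and 1 control cell held 48.8% of the control's Hspa1a UMIs.

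The other chaperones called higher at 60 min had smaller ratios. The nucleotide exchange factor Hsph1 was at 15.2, 30.01 and 152 CPM, 9.96-fold above the control at 60 min (6.16 to 17.1), and the co-chaperone Dnajb1 at 27.9, 62.5 and 222 CPM. Hsp90aa1, the inducible Hsp90, was at 759.5, 566 and 2052 CPM, 2.70-fold above the control (2.51 to 2.91). The constitutive Hspa8 was at 2025, 2313 and 3665 CPM and stayed within the fold, as did the endoplasmic reticulum chaperone Hspa5 at 963, 728 and 652 CPM. Hspa1a and Hspa1b were higher at 60 min than in the control in all 5 clusters that could be compared. In the classical monocyte-like cluster 2 Hspa1a was at 205, 219 and 1168 CPM. C1q macrophages had Hspa1a at 844, 633 and 3483 CPM, and keratin-rich cells at 883, 282 and 2035 CPM.

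**Figure D4:**
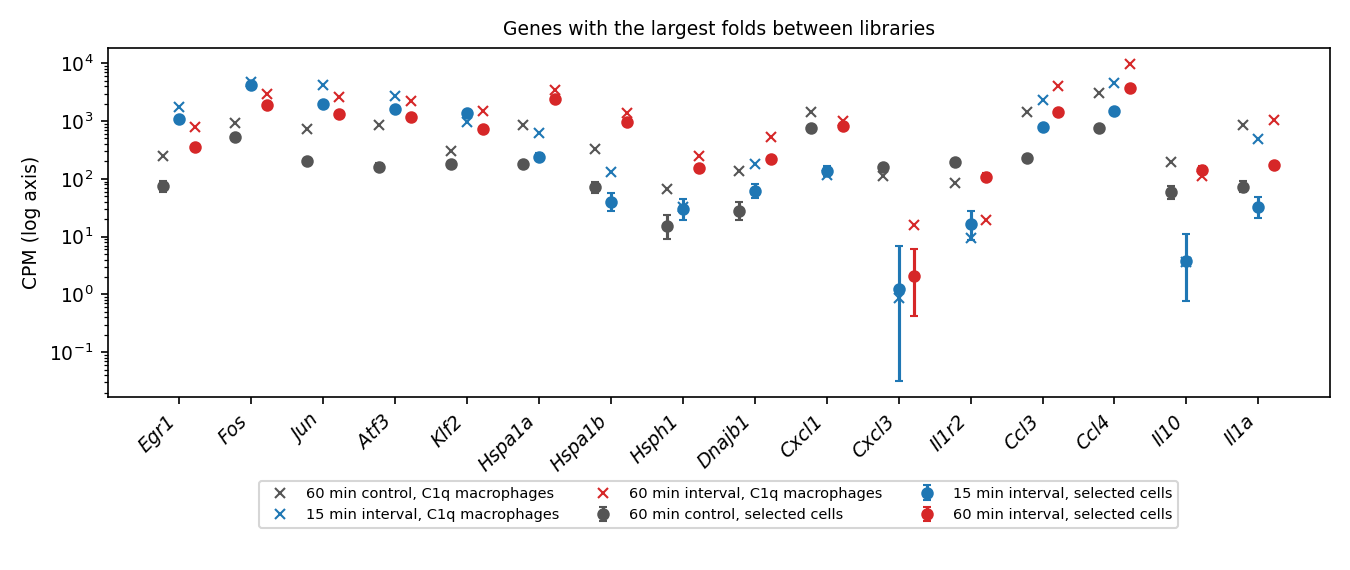
Level in CPM on a log axis of 16 of the genes with the largest ratios between libraries, in the selected cells (dots, with exact Poisson 95% intervals) and in C1q macrophages (crosses), for the control (gray), the 15 min library (blue) and the 60 min library (red). The blue dots of Egr1, Fos, Jun, Atf3 and Klf2 lie above the gray and red ones, the red dots of Hspa1a, Hspa1b, Hsph1 and Dnajb1 above the gray and blue ones, and the blue dots of Cxcl1, Il1r2, Il10 and Il1a below both.

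Of the neutrophil-attracting CXC ligands Cxcl1 to Cxcl3, Cxcl1 and Cxcl2 were lowest at 15 min and Cxcl3 was close to 0 in both platform libraries. Their proximal promoters hold the only 3 matches to the NF-kB sequence, searched as GGGA, any base and TTTCC, or GGAAA, any base and TCCC on the other strand, among the 13 genes of the chemokine list with a window. The same search found it in 0.411% of all windows. Among the inflammatory cytokines and enzymes it was in 2 of the 11 genes with a window, Csf1 and Il6. The stretches are printed 5′ to 3′ on the plus strand, with the match in capitals, because the 3 genes carry the same 10 letters and moved unequally. Cxcl1 is at chr5:90891139-90891218, Cxcl2 at chr5:90903767-90903846 and Cxcl3 at chr5:90785993-90786072.
Cxcl1: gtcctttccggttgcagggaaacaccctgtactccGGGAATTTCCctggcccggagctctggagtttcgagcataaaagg
Cxcl2: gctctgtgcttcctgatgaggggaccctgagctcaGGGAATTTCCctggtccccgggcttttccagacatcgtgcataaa
Cxcl3: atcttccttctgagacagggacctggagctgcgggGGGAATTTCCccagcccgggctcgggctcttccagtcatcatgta

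Cxcl1 was at 772 CPM in the control, 138 CPM at 15 min and 826 CPM at 60 min. It was 5.61-fold lower at 15 min than in the control (4.60 to 6.91), and the 60 min library and the control were within the fold of each other. Cxcl2 followed at 5672, 2297 and 7582 CPM, 2.47-fold lower at 15 min (2.34 to 2.60). Cxcl3 parted from them: it gave 187 UMIs in 23 control cells, 1 UMI at 15 min and 3 UMIs at 60 min, or 158, 1.25 and 2.05 CPM, so that the 60 min ratio to the control was 0.0130 (0.00265 to 0.0385). In C1q macrophages Cxcl3 was at 110.0, 0.864 and 15.8 CPM. In the classical monocyte-like cluster Cxcl1 was at 48.3, 9.54 and 769 CPM and Cxcl2 at 2146, 1088 and 10141 CPM. In the unnamed cluster 4 Cxcl1 was at 2035 CPM in the control, 243 CPM at 15 min and 8.43 CPM at 60 min, the opposite order of the platform libraries.

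The CC chemokines took another order. Ccl3 and Ccl4, which attract monocytes and T cells, were higher in the later library, Ccl3 at 229, 795 and 1420.5 CPM and Ccl4 at 753, 1468 and 3731 CPM, 4.96-fold above the control at 60 min (4.62 to 5.33). Ccl2, the ligand of Ccr2, was at 261, 544 and 801 CPM, 3.07-fold above the control at 60 min (2.71 to 3.49). Ccl6 was lower at 60 min, at 1159, 965 and 440.4 CPM, a ratio that turned to 1.11 within the monocyte-like clusters and to 1.06 when Ccr2 was left out of the rule. Over the 13 counted chemokines 5 were called higher and 3 lower at 15 min against the control, 5 and 2 at 60 min against the control, and 5 and 3 at 60 min against 15 min, with medians of -0.26, 0.42 and 0.56. In the same order 4.13, 2.76 and 3.81% of all counted genes were called higher and 5.72, 1.91 and 2.41% lower. Their medians were 0.05, -0.10 and -0.14.

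Inflammatory cytokines and enzymes showed 0 genes called higher and 4 lower (Il1a, Il1rn, Il10, Vegfa) among 10 counted at 15 min against the control, with a median of -0.56. At 60 min against the control 5 were called higher (Il1a, Il1b, Tnf, Il10, Ptgs2) and Vegfa lower, with a median of 0.86. Over all counted genes 4.13% were called higher and 5.72% lower at 15 min, and 2.76 and 1.91% at 60 min, with medians of 0.05 and -0.10. Il1b, the main interleukin-1 of monocytes, was at 3795 and 3404 CPM in the control and at 15 min and at 8949.7 CPM at 60 min, 2.36-fold above the control (2.28 to 2.44). Tnf was at 157, 184 and 412 CPM, 2.63-fold above the control at 60 min (2.23 to 3.12). Ptgs2, the inducible cyclooxygenase, was at 423, 246 and 926 CPM. In levels pooled over all clusters these 3 genes were highest at 60 min, where they were found in 130, 97 and 86 of 140 cells.

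Il10, the anti-inflammatory cytokine, and Il1a moved in opposite directions in the platform libraries. Il10 was at 58.4 CPM in the control, 3.75 CPM from 3 UMIs at 15 min and 144 CPM at 60 min, ratios to the control of 0.0642 (0.0129 to 0.196) and 2.46 (1.86 to 3.28). It came from 18, 2 and 25 cells, and 1 of them held 34.8% of the control's UMIs. Il1a was at 73.7, 32.5 and 176 CPM, from 22, 7 and 48 cells. With a marker minimum of 8 UMIs in place of 4, the ratio of Il1a at 15 min to the control was 1.04 in place of 0.441, so that its call at 15 min was lost. In C1q macrophages Il10 was at 192, 3.60 and 112 CPM and Il1a at 840.5, 491 and 1034 CPM. Within the monocyte-like clusters alone neither gene passed 3 UMIs in the control or at 15 min.

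The genes lower at 15 min reached beyond the cytokines. The decoy receptor Il1r2 was at 192, 16.3 and 107 CPM, 11.8-fold below the control at 15 min (6.78 to 22.5), and thrombospondin Thbs1 at 380.2, 70.0 and 194 CPM, 5.43-fold below (4.11 to 7.30). The lipopolysaccharide co-receptor Cd14 was at 4269, 1678 and 3744 CPM and Nfkb1 at 378, 120.1 and 316 CPM. The adenosine receptor Adora2b was at 185, 26.3 and 111 CPM and the sulfiredoxin Srxn1, a target of the oxidative stress factor Nrf2, at 110.1, 15.0 and 71.8 CPM. In all 6 genes the 15 min library was the lowest and the control the highest. The 10 genes with the largest ratio in this direction were lower at 15 min in each of the 3 clusters that could be compared. As these genes were picked by their pooled ratio in the same cells, that is a description.

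The NF-kB list as a whole had no common direction. Of its 14 genes, 3 were called higher (Nfkbiz, Nfkbid, Socs3) and 4 lower (Nfkbie, Nfkb1, Relb, Bcl3) at 15 min against the control, with a median of -0.20. At 60 min against the control 3 were called higher and 1 lower, and at 60 min against 15 min Tnfaip3 and Nfkb1 were higher. Among all counted genes 4.13, 2.76 and 3.81% were called higher and 5.72, 1.91 and 2.41% lower in these 3 comparisons, with a median of 0.05 in the first. The feedback inhibitor Nfkbia stayed within the fold at 1936, 1897 and 2884 CPM, and Tnfaip3 reached 367 CPM at 60 min from 104 CPM in the control.

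**Figure D5:**
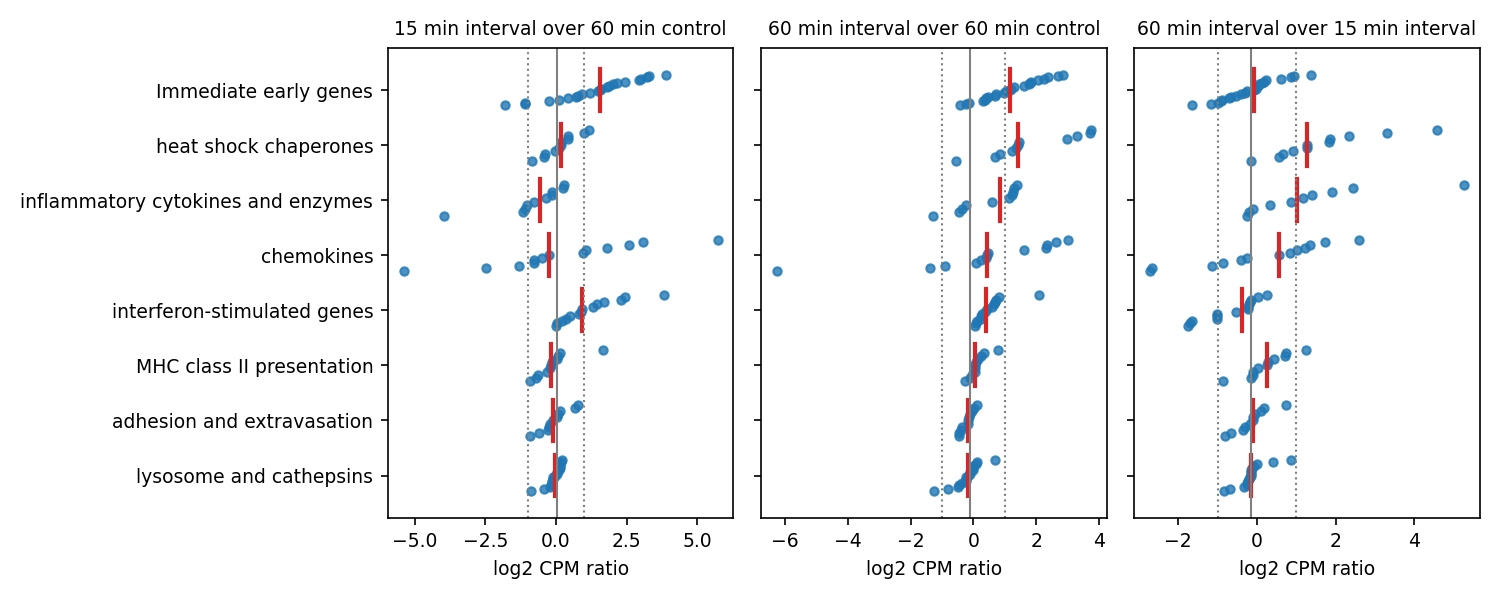
Log2 CPM ratio of every counted gene of 8 lists (blue dots, 1 per gene) in the 3 comparisons, with the median of the list (red bar), the median of all 2569 counted genes (gray line) and the limits of 2-fold (dotted lines). The red bar of the immediate early genes stands at 1.55 at 15 min and 1.16 at 60 min against the control and that of the heat shock chaperones at 0.18 and 1.43; those of adhesion and lysosome genes lie near the gray line.

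Interferon-stimulated genes rested on few cells. Of 14 counted members of a list of 22, 6 were called higher and none lower at 15 min against the control, with a median of 0.91 beside 0.05 for all genes, and the same 6 (Ifit1, Ifit2, Rsad2, Oasl2, Ifi209, Rtp4) lower at 60 min against 15 min. For all counted genes the share called higher in the first comparison was 4.13% and the share called lower in the other was 2.41%. The motif of interferon regulatory factors, searched as GAAA, any 2 bases and GAAA, or TTTC, any 2 bases and TTTC on the other strand, was in the windows of 7 of 13 genes of the list with a window, which had 14 windows, and in 3.44% of all windows. The 7 were Bst2, Gbp2, Ifit1, Ifit3, Ifit3b, Isg15 and Rsad2. Of the 6 called genes only Ifit1 and Rsad2 were among them. Cxcl10 belongs to the chemokine list. Stretches of Rsad2, Ifit1 and the interferon-induced chemokine Cxcl10 are printed 5′ to 3′ on each gene's strand with the matches in capitals, because all 3 genes were highest in the 15 min library. Rsad2 is at chr12:26456528-26456607 on the minus strand, Ifit1 at chr19:34640750-34640848 on the plus strand with 2 matches, and Cxcl10 at chr5:92349058-92349137 on the minus strand.
Rsad2: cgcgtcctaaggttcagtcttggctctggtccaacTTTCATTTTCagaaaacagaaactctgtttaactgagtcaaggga
Ifit1: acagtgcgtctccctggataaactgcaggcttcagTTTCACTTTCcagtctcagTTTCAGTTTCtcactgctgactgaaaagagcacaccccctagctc
Cxcl10: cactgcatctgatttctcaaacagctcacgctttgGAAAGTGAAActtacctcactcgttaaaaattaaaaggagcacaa

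Rsad2, the antiviral enzyme viperin, was at 67.7 CPM in the control, 370.2 CPM at 15 min and 118 CPM at 60 min, from 13, 12 and 19 cells. A single 15 min cell held 38.2% of its UMIs there. Cxcl10 was at 70.3, 594 and 93.0 CPM from 11, 12 and 23 cells, and Ifit2 at 8.47, 121 and 36.2 CPM from 3, 12 and 15 cells. At 15 min the unnamed cluster 4 held 295 of the 296 Rsad2 UMIs, 452 of the 475 Cxcl10 UMIs and 92 of the 97 Ifit2 UMIs. Rsad2 in that cluster was at 93.7 CPM in the control, 2108 CPM at 15 min and 666 CPM at 60 min. All 108 Cxcl9 UMIs of the 15 min library came from 1 cell. In the classical monocyte-like cluster 2 Rsad2 was at 16.1, 4.77 and 99.9 CPM, so the order of the libraries was not that of the pooled cells. Cxcl10 there was at 72.5, 42.9 and 65.3 CPM, with the lowest level at 15 min. The ubiquitin-like Isg15, at 257, 451 and 401 CPM, stayed within the fold.

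Some of the genes lowest at 60 min lay mostly in 1 cluster, and others were lower within clusters too. Retnla was at 2618, 2177 and 181 CPM and Lyz1 at 2286, 1728 and 58.1 CPM, from 14, 9 and 3 cells and from 14, 7 and 5 cells. Cluster 6, with 11 control cells, 6 at 15 min and 1 at 60 min, held 3089 of 3092, 1711 of 1741 and 66 of 265 Retnla UMIs. With Ccr2 left out of the rule, an alternative chosen after seeing the data that removes most such cells, the 60 min ratio of Retnla to the control was 36.8, over 2 control UMIs set to 3, and that of Lyz1 4.60, in place of 0.0692 and 0.0254. That Retnla ratio had 147 UMIs at 60 min, which came from a single cell. In cluster 4, at 1240 CPM at 60 min and 0 in the control, Retnla was found in 2.33% of the cells. Fibronectin (Fn1) was at 1681, 1378 and 360.4 CPM, 4.66-fold lower at 60 min (4.23 to 5.14), but at 805, 1455 and 868 CPM within cluster 2. The secreted phosphoprotein Spp1, at 1596, 1533 and 426 CPM, was lower at 60 min in all 5 clusters compared, at 149, 301 and 88.4 CPM in cluster 2. C1q macrophages held Spp1 at 951, 1083 and 999 CPM, and keratin-rich epithelial cells at 14218, 14068 and 23377 CPM. The part of epithelial RNA in the Spp1 of the selected cells was not tested. F13a1, the coagulation factor XIII chain of monocytes, was at 259.9, 350.2 and 106 CPM, and at 354, 477 and 219 CPM in cluster 2.

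Agreement across clusters differed by comparison, among genes picked by their pooled ratio in the same cells. Of the 10 genes with the largest ratio each way at 60 min against the control, ranked by the interval bound nearest to 1, 6 of those higher and 2 of those lower kept their direction in all 5 clusters. The 2 were Spp1 and the metallothionein Mt1, at 1152, 333 and 462 CPM, and the 6 were Hspa1a, Hspa1b, Atf3, Jun, Dnajb1 and Ccl4. A cluster at 0 in both libraries was counted as not keeping the direction. Cxcl3 was lower in 4 clusters and at 0 in both libraries in cluster 5, and Retnla, Fcrls and Mt2 also had clusters at 0 in both. Among the higher genes that did not, Egr1 in the non-classical cluster 5 was at 268 CPM in the control and 163 CPM at 60 min, and Hsph1 there at 58.2 CPM from 5 UMIs and 12.6 CPM from 1 UMI. Ccl3 in cluster 4 was at 960 CPM in the control and 759 CPM at 60 min, and Tnfsf9 was at 0 in cluster 5 in both. At 60 min against 15 min, 9 of 10 in each direction kept theirs in all 3 clusters.

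Other lists held few calls, and at a background of 4.67 to 9.85% of all counted genes a list of about 10 genes with none is not apart from the rest. Of 11 MHC class II genes none was called at 60 min against the control, while H2-Eb1 was called higher at 60 min against 15 min, at 91.4, 48.8 and 116 CPM. Cd74, the invariant chain, was at 16942, 15445 and 18699.6 CPM. H2-Aa, at 4538, 3977 and 5333 CPM, lay mostly outside the monocyte-like cells, at 592, 377 and 419 CPM in cluster 2. Ciita, the master regulator of class II, was called higher at 15 min, at 39.8, 126 and 69.1 CPM. None of 11 adhesion and extravasation genes was called in any comparison: the integrin chain Itgb2 was at 362, 339 and 265 CPM, the selectin ligand Selplg at 196, 205 and 198 CPM and the hyaluronan receptor Cd44 at 691, 366 and 609 CPM. None of 9 S100 and annexin genes was called, with S100a4 at 1809, 1736 and 1311 CPM and S100a6 at 2054, 2256 and 1514 CPM. Of 17 lysosomal genes only Cd63 was called, lower at 60 min against the control at 202, 151 and 84.8 CPM.

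Receptors and effector genes gave a few calls more. Over all counted genes 4.13% were called higher and 5.72% lower at 15 min against the control. The shares were 2.76 and 1.91% at 60 min against the control, and 3.81 and 2.41% at 60 min against 15 min. Of 14 chemokine and growth factor receptors outside the rule, Cxcr4, Ccr7 and Csf2rb were called lower at 15 min against the control and none higher. Csf2rb, the shared chain of the receptors for GM-CSF and related cytokines, was at 498, 216 and 217 CPM, 2.30-fold lower in both platform libraries, and Csf1r stayed level at 431, 415 and 388 CPM. Ccr7 came from 9, 0 and 10 cells. With its 15 min count of 0 set to 3 UMIs (3.75 CPM), against 114 control UMIs, it was 25.7-fold lower at 15 min. Of 15 lectins and pattern receptors Fcgr1 was called higher and Clec4e and Cd14 lower at 15 min against the control. Of 9 suppressive genes Vsir was called higher and Arg2, Il10, Hmox1 and Trem1 lower in that comparison, with Arg2 at 82.1, 15.0 and 61.6 CPM. Matrix and coagulation genes gave Thbs1 and Plaur lower at 15 min and Fn1, F13a1 and Ecm1 lower at 60 min, out of 10, but Ecm1 had a ratio of 3.54 within the monocyte-like clusters. Of 12 glycolysis genes Ndrg1 was lower at 15 min and Tpi1 lower at 60 min against 15 min. Only 3 of 18 cell cycle genes reached the level to be counted and none was called. Lyz2, the myeloid lysozyme, ran at 16402, 14004 and 9219.9 CPM within the fold, and at 20918, 21434 and 18349 CPM in cluster 2.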

How the data were processed

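The authors made the deposited count values, integer counts of UMIs for each gene in each cell of the 3 tumor and the 3 kidney libraries, with Cell Ranger (3.1.0 per the submitters' notes, mm10) and joined each tissue's libraries with its depth-evening aggregation step, so part of the depth difference between libraries is already removed. The tumor libraries held 8177, 8198 and 8152 cells and 90414805, 101222030 and 97006183 UMIs over 31053 genes (control, 15 min, 60 min), of which 5736, 5802 and 6024 cells passed the limits of the study's methods. Barcode suffixes gave the library, and no column of other samples was set aside. The members and gene lists were chosen with earlier results of these data known.

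UMIs were summed over the selected cells per library and divided by their total (CPM). Genes with a mean of at least 50 CPM were counted and called at a ratio of 2, with sums under 3 UMIs set to 3. Intervals at 95% are Clopper-Pearson for shares, log-scale binomial for ratios of shares, exact Poisson for CPM and exact conditional binomial for CPM ratios. No test was run, with 1 library per condition.

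Clusters used scanpy 1.11.5 (1000 variable genes, 15 components, 15 neighbours, Leiden resolution 0.6, seed 0) after removal of 3091 genes that differed at least 2-fold between libraries. A name needed 3 detected markers (10% of cells, 1.5-fold over the other clusters' median plus 20 CPM), no rival list ahead, and 2 of its markers among the 10 leading genes, limits written after the clusters had been seen. Doublets were scored with Scrublet and removed only in an alternative. The genes named are those of the rule and up to 4 by level and 4 by ratio of each of 17 gene lists and 14 marker lists. Added to these were the 10 largest ratios by comparison and direction in which no cell held over 25% of the UMIs of the higher library. These were ranked by the interval bound nearest to 1, which favors abundant genes. A further 20 each way came from the comparison with C1q macrophages. Others named in the text, the leading genes of clusters and the levels within them were picked after their values were seen. Aldoa, of the glycolysis list, was left out because its symbol names more than 1 gene of the files. Promoter windows came from RefSeq (GRCm38.p6), matched by symbol. The fold calculation was checked on simulated counts. Python 3.11.15, numpy 2.4.6, pandas 2.3.3, scipy 1.17.1 and matplotlib 3.10.9 were used.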

Additional observations from a re-analysis of the deposited data

Results flagged for a closer look

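Of the counted genes, 4 passed 2-fold in opposite directions in the 2 platform libraries against the same control library. The difference between the platform libraries was not tested, since each is a single library. Il10, an anti-inflammatory cytokine, had a ratio to the control of 0.0642 at 15 min and 2.46 at 60 min. Il1a, an alarmin of the interleukin-1 family, had ratios of 0.441 and 2.39, but with a marker minimum of 8 UMIs its 15 min ratio was 1.04 and no longer past the fold. Ifrd1, an interferon-related regulator of transcription, stood at 561, 255 and 1209.8 CPM in the control, 15 min and 60 min libraries, ratios of 0.455 and 2.16. Grasp, a scaffold protein of membrane receptors, stood at 53.3, 21.3 and 152 CPM, ratios of 0.399 and 2.85. In C1q macrophages Ifrd1 was at 1039.8, 199 and 1053 CPM and Grasp at 177, 54.3 and 138 CPM, where the 60 min library did not pass the control by 2-fold.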

How the results depend on the processing

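Shares of kept cells (control, 15 min, 60 min) became 1.41% in the control and 1.91% at 60 min with a marker minimum of 8 UMIs, 1.27, 0.862 and 1.71% with no C1q UMI, 1.03% at 15 min and 1.72% at 60 min after thinning to 3000 UMIs, and 6.25, 5.84 and 7.04% of Ptprc cells, where the ratio of 60 to 15 min was 1.20. Leaving Ccr2 out of the rule, chosen after seeing the data, gave 1.36, 0.982 and 1.83%.

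Counts of called genes, in the order 15 min over control, 60 min over control and 60 over 15 min, each as higher and lower, became 314, 261, 145, 128, 174 and 249 with a minimum of 20 CPM, 41, 71, 40, 24, 65 and 27 with 100 CPM, 303, 302, 165, 222, 217 and 317 with a fold of 1.5, and 38, 52, 31, 9, 35 and 17 with a fold of 3. Median-of-ratios scaling gave 56 higher at 15 min over control, and 157 higher and 23 lower at 60 over 15 min. No C1q UMI gave 95 lower at 60 over 15 min. The monocyte-like clusters alone, 101 cells and an alternative chosen after seeing the data, gave 165 higher at 15 min over control, 98 lower at 60 min over control, and 175 higher and 189 lower at 60 over 15 min. Of 176 ratios of named genes past 2-fold, 107 were past it in the same direction in those clusters and 147 to 172 under the other alternatives. Without the cells that held Krt8 or Krt18 UMIs, which left 46, 53 and 106 cells, 28 of the ratios of the genes with the largest differences left their counting interval and 32 did not, and Lcn2 and Csn3 turned to 0.388 and 0.442 at 60 over 15 min.

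At 60 min over control, ratios turned for Fn1 to 1.11, Ccl6 to 1.11 and Ecm1 to 3.54 in the monocyte-like clusters, and for Retnla to 36.8, Fcrls to 2.005 and Ccl6 to 1.06 without Ccr2 in the rule. The turned Retnla ratio rested on a single 60 min cell of cluster 4. Over all named genes 37 ratios past 2-fold turned, 23 of them in the monocyte-like clusters, and 9 of the 37 compared sums of at most 3 UMIs. Those clusters gave Cxcl10 0.701 and Rsad2 0.601 at 15 min over control, and Ier2 0.771 and Jaml 0.820 at 60 min over control. The cause was not tested. Of the comparisons made for the 10 largest ratios each way, the 6 given first turned, 367 stayed within the counting interval of the reported ratio and 167 left it without turning.

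No paired analysis was possible because each condition has 1 library, so no pair of conditions shares more than 1 replicate number, and leaving out a replicate was not possible either. With 78 to 140 cells per library, a gene carried by few cells can pass 2-fold through 1 of them.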

Other observations

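Further genes had large ratios and varied roles. The costimulatory ligand Tnfsf9 was at 22.02, 48.8 and 166 CPM in the control, 15 min and 60 min libraries, 7.52-fold above the control at 60 min (5.01 to 11.7), but 1 control cell held 61.5% of the control's UMIs. Rgs2, which dampens signals of G protein-coupled receptors, was at 168, 727 and 564 CPM. Slfn1, a Schlafen gene, was at 17.8, 113 and 28.7 CPM in the selected cells and at 3.23, 4.03 and 2.59 CPM in C1q macrophages. The actin-capping Capg, at 458, 554 and 212 CPM, and the guanine deaminase Gda, at 159, 224 and 87.5 CPM, were lowest at 60 min.

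Among the classical monocyte genes outside the rule, Hp was at 367, 211 and 127 CPM and Vcan at 104, 83.8 and 75.9 CPM in all selected cells, and at 599.9, 568 and 461 CPM and 266, 205 and 315 CPM in the classical monocyte-like cluster. The acute phase gene Saa3 was at 60.4, 463 and 446 CPM in that cluster, but it came from 7, 8 and 14 of all selected cells and 1 cell held 50% of the control's UMIs.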
